A study of Mus musculus with 12 samples.

Results

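Tumours of the passage named Balb/c-2 were compared with tumours of the passage F0. Both were grown from YUMM1.7, a mouse melanoma cell line of C57BL/6 origin with a mutant Braf and without functional Cdkn2a. The comparison took 6 of the 12 tumours of the study by the names of their columns, Balb/c-2 A, B and C against F0 A, B and C, and its members were all 34436 genes of the deposited table. Per the labels, mice syngeneic to the line were injected with its cells and gave the F0 tumours. Tumours were then dissociated and their cells injected into further mice. The passages that followed were F1 and F2, then the N2 passages (N2.1 is used here), then Balb-c1 and Balb/c-2, and last CBA. The labels do not give strain, sex or age of the hosts beyond these names, and no step that separates tumour cells from host cells is described. All groups share the parental line, and each group is a single passage with 3 tumours. The labels do not say whether they came from separate mice. SEs and adjusted p values therefore measure only the spread between tumours within the 4 groups, which may be technical. N2.1, an earlier passage than Balb/c-2 with 3 tumours, is used below for genes already described against F0, and the 3 CBA tumours entered only the estimate of spread.

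Some of the genes described below belong to groups whose biology is well known. Cancer-testis genes are transcribed in germ cells, are silenced in most somatic tissue, largely by DNA methylation, and are switched on in many melanomas. Interferons induce families of large GTPases and the machinery of antigen presentation, and zinc finger proteins with a KRAB domain bind and silence transposable elements. Type IV collagens and laminins form the basement membrane, and lysyl oxidases and fibulins join collagen and elastin in the matrix around cells.

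Values are normalised read counts as deposited, and each run of 3 values is in the order A, B and C. The log2 change is that of the value plus a pseudocount of 1 and is given with its SE. It understates the change of genes with low values. A gene is said to be called, and to rise or fall, where limma, fitted over all 12 tumours, gave an adjusted p under 0.05 over the 17491 genes that reached a value of 10 in at least 3 tumours.

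The libraries held between 34721735 and 59404254 reads, and all 6 tumours compared lay within this range. The Balb/c-2 tumours were less alike than the F0 tumours: the median SD of a gene between tumours of the group was 0.61 in Balb/c-2 and 0.33 in F0 on the log2 scale. Genes with at least 1 read numbered 26376, 23954 and 20177 in Balb/c-2, against 22045, 22365 and 21855 in F0. Copies of repeats with a read numbered 248013, 240534 and 69308 in Balb/c-2, against 119969, 154908 and 107313 in F0. Per the library names, Balb/c-2 A was on the flow cell of the F0 tumours and Balb/c-2 B and C were on another. Each change was therefore also read in Balb/c-2 A and in a fit with a term for the flow cell, named the flow cell fit here, in which the size of a change comes from Balb/c-2 A alone. Bulk RNA does not tell fewer cells of a type from less RNA per cell, nor host cells from tumour cells.

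Of the 17491 genes tested, 614 were called (3.51%), with 329 higher (1.88%) and 285 lower (1.63%) in Balb/c-2. Quantile normalisation gave 327 higher and 406 lower. For all 614 the 3 Balb/c-2 values lay on one side of the 3 F0 values, as they did for 21.3% of the genes tested. All 614 therefore differed in the same direction in Balb/c-2 A. In the flow cell fit 261 genes were called (1.49%), with 206 higher and 55 lower in Balb/c-2, and 151 of the 614 were among them. The median size of the called changes was 2.52 on the log2 scale in Balb/c-2 A and also 2.52 in the mean of Balb/c-2 B and C, and in 29 genes Balb/c-2 A showed less than 50% of the size in the others. Balb/c-2 A took part in the calls, which favours agreement in size, so the flow cell's part is not settled by it. Among called genes, 52 rose by over 5 on the log2 scale and 16 fell by over 5. Without F0 B the count was 227 and without F0 A it was 304, of which 219 and 282 were among the 614. Without Balb/c-2 A it was 446, of which 342 were among the 614. The fit uses 1 spread per gene over all 4 groups, which can understate that of Balb/c-2. With array weights, which let the groups differ in spread, 219 of the 614 were called.

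The largest gains among genes of the germ line were of Rhox5 and Morc1. Rhox5, an X-linked homeobox gene of testis and placenta (ENSMUSG00000095180, chromosome X, 37804842 to 37808876, build mm10), was at 10017, 2507 and 9506 in Balb/c-2 tumours, against 42.2, 19.085 and 47.2 in F0 tumours. It rose in all 3 tumours, least in Balb/c-2 B, with a log2 change of 7.48 ± 0.91 (adjusted p = 0.00117). The other members of the Rhox cluster that the table holds were at or near 0: Rhox4e was at 0, 0 and 5.15 in Balb/c-2 and at 0 in F0. Morc1, which takes part in the silencing of transposable elements in male germ cells (ENSMUSG00000022652, chromosome 16, 48431237 to 48630900), was at 576, 884 and 1058 in Balb/c-2, against 7.77, 2.86 and 3.85 in F0. Its log2 change was 7.22 ± 0.51 (adjusted p = 2.58e-05), and the lowest Balb/c-2 tumour lay far above every F0 tumour. Both were also called in the flow cell fit (adjusted p = 0.0198 for Rhox5 and 0.00255 for Morc1).

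Of 36 tested germline and cancer-testis genes, 8 rose, 0 fell and 28 were not called (22.2% called, where 3.51% of all genes tested were). Dppa3, not tested because it reached 10 in fewer than 3 tumours, went the other way. It had 0 reads in Balb/c-2 and was at 38.8, 26.7 and 5.78 in F0, at least 26.55-fold lower. The list had a median log2 change of 1.18 (1.35 with genes of 3 reads or fewer in a group at their ratio or bound), where all genes tested had a median of -0.02. Of 81 members that the deposited table holds, 36 were tested. Members near 0 in F0 passed only through high values in other groups, so the filter can favour rises in the count and median. The summed level of the list was 13599, 6756 and 13998 in Balb/c-2, against 1813, 1955 and 1811 in F0, and Rhox5 made up most of the sum in Balb/c-2 A and C. Magea3, of a family of antigens shared by testis and tumours, was at 505, 258 and 259.9 in Balb/c-2, against 4.44, 1.91 and 9.64 in F0 (log2 change 5.88 ± 0.74, adjusted p = 0.00143). Magea8 was at 195, 244 and 498 in Balb/c-2, against 2.22, 23.9 and 28.9 in F0 (log2 change 4.43 ± 0.73, adjusted p = 0.00767). Of the 8 risers of the list, 3 were also called in the flow cell fit, Rhox5, Morc1 and Magea3. Magea8, Magea6 and Lin28b were not. Magea6 had 53 reads in Balb/c-2 and 1 read in F0, a ratio of 45.92 (exact 95% counting interval 7.893 to 1848). These intervals cover counting error only. The copies of this family are nearly identical, and how reads shared between them were assigned is not given in the sources used here.

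Xlr3c, of a family of X-linked genes active in lymphocytes and meiosis, rose unevenly. It was at 21.5, 234 and 229 in Balb/c-2, against 2.22, 1.91 and 0.964 in F0 (adjusted p = 0.0189), lowest in Balb/c-2 A, and was not called in the flow cell fit (adjusted p = 0.254). Lin28b, whose product blocks the microRNA let-7 and keeps cells in an early state, was at 75.2, 98.9 and 63.5 in Balb/c-2, against 2.22, 8.59 and 9.64 in F0 (adjusted p = 0.0256). Tex14, needed for the bridges between germ cells, was at 54.6, 108 and 28.3 in Balb/c-2, against 8.88, 6.68 and 8.67 in F0 (adjusted p = 0.0168). Of the meiotic genes of the same list, Sycp3 was at 7.44, 4.67 and 60 in Balb/c-2 and 8.88, 2.86 and 14.5 in F0, Hormad1 was at 4.96, 0 and 0 in Balb/c-2 and 0, 0 and 0.964 in F0, and Majin was at 32.2, 53.2 and 18.9 in Balb/c-2 and 12.2, 1.91 and 6.75 in F0, without overlap but not called (adjusted p = 0.0568). The piRNA factor gene Piwil2 (81.8, 243 and 65.2 in Balb/c-2, 84.4, 73.5 and 80 in F0) and the testis bromodomain gene Brdt (126, 189 and 326 in Balb/c-2, 214, 330.2 and 219.7 in F0) overlapped between the groups. Dnmt3l, a cofactor of DNA methylation in germ cells, was at 75.2, 119 and 95.2 in Balb/c-2, against 21.1, 3.82 and 17.3 in F0, without overlap but not called (adjusted p = 0.0916).

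**Figure D1:**
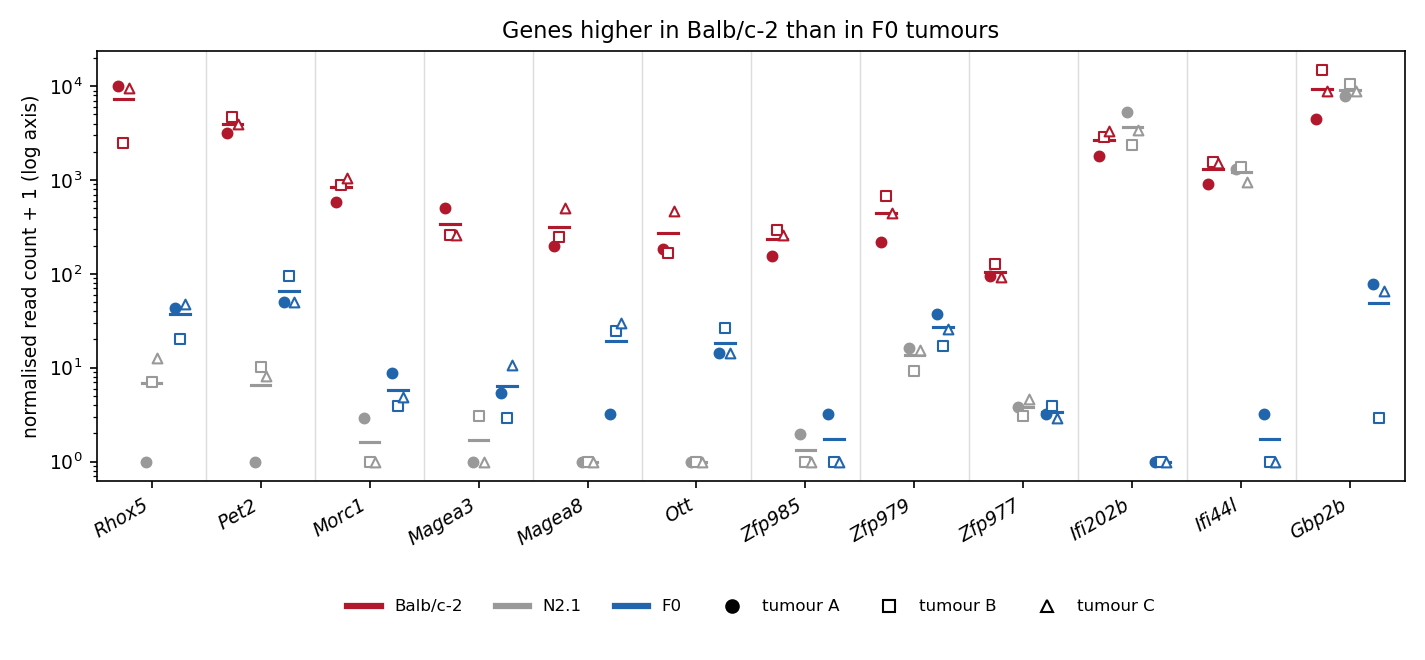
Normalised read count plus 1 (log axis) of 12 genes that rose in Balb/c-2, with each tumour as a point and the group mean as a bar, for Balb/c-2 (red), N2.1 (grey) and F0 (blue). The first 9 genes are high in the Balb/c-2 tumours and low in N2.1 and F0, while Ifi202b, Ifi44l and Gbp2b are high in N2.1 too.

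The share of genes called was larger on the X chromosome than on any autosome, a split by chromosome made after the values were seen. Of 592 X-linked genes tested, 35 rose and 16 fell, together 8.61%, and the autosomes lay between 1.79% and 4.23%. Of the 35 that rose, 15 were also called in the flow cell fit, as were 5 of the 16 that fell. The count on X was 45 without Balb/c-2 A and 34 without F0 A. The genes with values in the rest of the X chromosome's account were chosen after their values were seen, apart from Col4a6. Pet2 was at 3142, 4711 and 3978 in Balb/c-2, against 48.8, 94.5 and 49.1 in F0 (log2 change 5.97 ± 0.71, adjusted p = 0.00103), and its 3 Balb/c-2 tumours lay close together. Gm773 was at 1681, 1145 and 3650.5 in Balb/c-2, against 17.8, 20 and 18.3 in F0 (adjusted p = 2.4e-06), and 3830417A13Rik was at 8742, 719 and 1640 in Balb/c-2, against 7.77, 1.91 and 1.93 in F0 (adjusted p = 0.000702). Xlr was at 1066, 987 and 2344 in Balb/c-2, against 218, 279.6 and 232 in F0 (log2 change 2.48 ± 0.32, adjusted p = 0.00167).

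On the X chromosome 2 stretches were dense in rises. Stretches were picked by their calls: each holds at least 6 rises less than 3000000 bases apart. Each runs from its first rise to its last, so its density follows in part from this choice and was not tested. Members near 0 in F0 passed the filter only through high values in other groups, which favours rises in the counts below. Between 147992993 and 149984982 there were 12 tested genes, of which 10 rose and 12 had a positive log2 change. They include Ott, a gene expressed in ovary and testis, at 183, 168 and 463 in Balb/c-2, against 13.3, 25.8 and 13.5 in F0 (log2 change 3.78 ± 0.47, adjusted p = 0.00134). Their log2 changes ran from 2.78 to 6.17, and no N2.1 tumour exceeded 4.07 for any of the 10. Between 27924017 and 30843469, 6 of 7 tested genes rose, all of them low: Gm10487 was at 57.9, 28.9 and 56.6 in Balb/c-2 and at 0 in all F0 tumours. These stretches hold families of near-identical copies, so the number of separate genes behind them is uncertain. Calls were sparser between 71803688 and 74171866, where 6 of 35 tested genes rose and 20 had a positive log2 change, among the 6 the phosphatase gene Dusp9 at 290.1, 942 and 573 in Balb/c-2, against 61, 113 and 90.6 in F0, and the adhesion gene L1cam at 201, 329 and 85.8 in Balb/c-2, against 38.8, 32.4 and 22.2 in F0.

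Of the 16 X-linked genes that fell, 5 are given here. Nrk, a kinase gene of the placenta, had 1 read in Balb/c-2 and was at 64.4, 85.9 and 29.9 in F0, lower by a ratio of 206.6 (exact 95% counting interval 36.61 to 8205). Bhlhb9 was at 154, 47.6 and 40.3 in Balb/c-2, against 604, 1267 and 771 in F0 (log2 change -3.63 ± 0.63, adjusted p = 0.0104), and Tceal1 was at 37.2, 43.9 and 12.9 in Balb/c-2, against 175, 241 and 202 in F0 (log2 change -2.84 ± 0.44, adjusted p = 0.00575). Armcx6 was at 54.6, 47.6 and 65.2 in Balb/c-2, against 289.7, 290.1 and 285 in F0 (log2 change -2.36 ± 0.36, adjusted p = 0.00466), with tight groups on both sides. Capn6, which encodes a calpain without protease activity, was at 152, 461 and 218 in Balb/c-2, against 2054, 6245 and 1848 in F0 (log2 change -3.53 ± 0.63, adjusted p = 0.0125). Of these 5, Nrk and Capn6 were also called in the flow cell fit (adjusted p = 0.0236 and 0.0486).

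**Figure D2:**
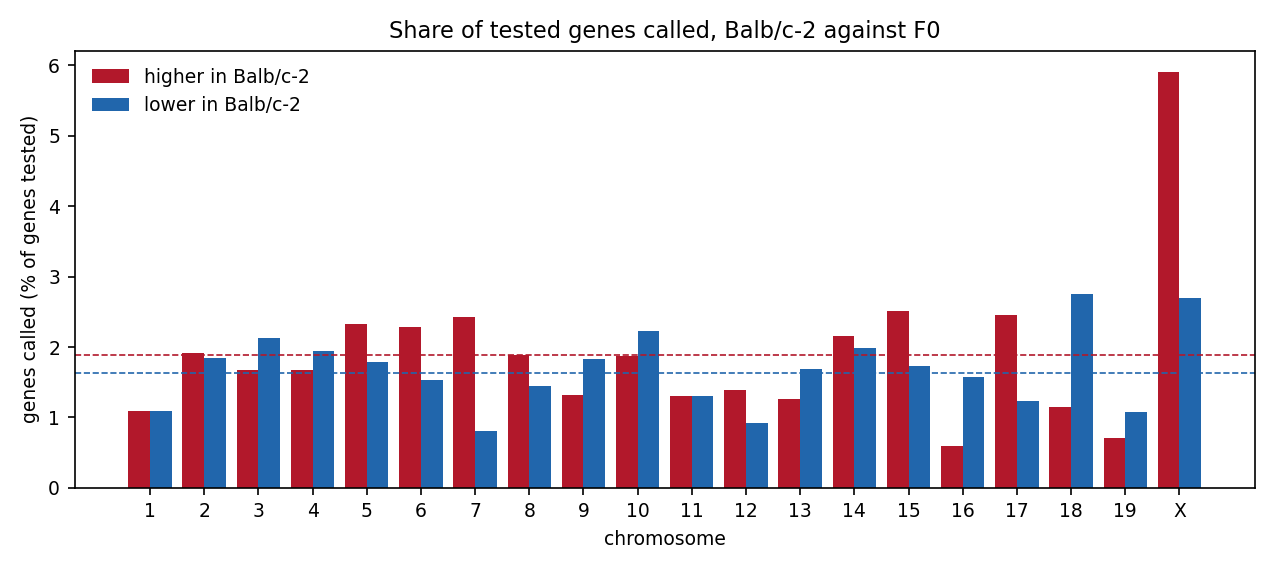
Share of tested genes called higher (red) and lower (blue) in Balb/c-2 than in F0 for each autosome and the X chromosome, in percent. Dashed lines mark the shares over all genes (1.88% higher and 1.63% lower), and the X chromosome has the tallest bar for higher genes, with 5.91% of 592 genes.

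On the Y chromosome 15 genes were tested and 2 fell, Uba1y and Gm2098, named after their values were seen. Uba1y, a Y-linked ubiquitin-activating enzyme gene of the testis, was at 70.3, 97.1 and 45.5 in Balb/c-2, against 1091, 1192 and 934 in F0 (log2 change -3.96 ± 0.46, adjusted p = 0.000887), and N2.1 was at 32.2, 23.4 and 16.3. Ddx3y, a Y-linked helicase gene expressed in most male cells, was at 2117, 1336 and 2042 in Balb/c-2 and 3353, 3454 and 2878 in F0 and was not called. Xist, the RNA that coats the inactive X in female cells, was at 0, 8911 and 0 in Balb/c-2 and 0, 2.86 and 1396 in F0, so it was high in Balb/c-2 B and, less so, in F0 C. The X-linked gains with values above were seen in all 3 Balb/c-2 tumours, and their relation to Xist was not tested.

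Gains were also found among KRAB zinc finger genes of the Zfp5xx and Zfp9xx clusters. Of 54 tested 4 rose, 0 fell and 50 were not called (7.41% called, where 3.51% of all genes tested were), and the median log2 change was -0.00. Zfp985 (ENSMUSG00000065999, chromosome 4, 147553277 to 147585198) was at 154, 291 and 256 in Balb/c-2, against 2.22, 0 and 0 in F0, with 797 reads in Balb/c-2 and 2 in F0, a ratio of 345.3 (exact 95% counting interval 95.27 to 2856). Its neighbour Zfp979 on the same chromosome was at 218, 679 and 448 in Balb/c-2, against 36.6, 16.2 and 25.1 in F0 (log2 change 3.98 ± 0.50, adjusted p = 0.00135). Zfp977 was at 95.1, 127 and 90.9 in Balb/c-2, against 2.22, 2.86 and 1.93 in F0 (log2 change 4.97 ± 0.41, adjusted p = 7.56e-05), and Zfp936, also on chromosome 7, was at 172, 62.5 and 99.5 in Balb/c-2, against 2.22, 2.86 and 0 in F0 (log2 change 5.48 ± 0.69, adjusted p = 0.00135). The 3 Balb/c-2 tumours lay above all F0 tumours for each of the 4, and all 4 were also called in the flow cell fit (adjusted p between 0.00451 and 0.0384). Genes of these clusters resemble each other closely, so their values share the uncertainty about read assignment.

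Promoter windows of a gained zinc finger gene, a gained Magea gene and the lost genes Rasgrf1 and Foxf2 (values further on) are printed so that their CG content can be seen. Each window runs from 250 bases before to 50 bases after the start of the gene in RefSeq (build GRCm38.p6), is read 5′ to 3′ on the strand of its gene, and has every CG in capitals. The windows are those of Zfp985 (chr4:147553027-147553326, plus strand), Magea8 (chrX:154995801-154996100, minus strand), Rasgrf1 (chr9:89909525-89909824, plus strand, 133 bases from the start annotated for the deposited gene) and Foxf2 (chr13:31625566-31625865, plus strand).
Zfp985: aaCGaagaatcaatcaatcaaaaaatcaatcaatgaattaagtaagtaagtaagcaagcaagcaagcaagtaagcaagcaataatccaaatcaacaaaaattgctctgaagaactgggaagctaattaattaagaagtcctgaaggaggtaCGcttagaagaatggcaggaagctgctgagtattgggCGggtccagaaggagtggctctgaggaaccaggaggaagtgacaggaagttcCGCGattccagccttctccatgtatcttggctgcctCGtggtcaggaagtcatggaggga
Magea8: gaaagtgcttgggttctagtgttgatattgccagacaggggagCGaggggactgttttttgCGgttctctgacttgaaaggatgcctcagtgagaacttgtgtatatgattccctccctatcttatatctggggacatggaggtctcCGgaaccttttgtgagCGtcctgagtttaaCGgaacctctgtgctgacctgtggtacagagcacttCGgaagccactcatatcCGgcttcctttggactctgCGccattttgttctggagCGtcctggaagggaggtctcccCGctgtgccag
Rasgrf1: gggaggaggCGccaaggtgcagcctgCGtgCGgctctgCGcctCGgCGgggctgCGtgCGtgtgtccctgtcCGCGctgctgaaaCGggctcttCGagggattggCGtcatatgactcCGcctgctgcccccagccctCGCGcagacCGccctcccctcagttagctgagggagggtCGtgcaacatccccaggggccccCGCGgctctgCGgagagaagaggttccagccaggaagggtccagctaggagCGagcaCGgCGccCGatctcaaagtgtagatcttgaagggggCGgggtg
Foxf2: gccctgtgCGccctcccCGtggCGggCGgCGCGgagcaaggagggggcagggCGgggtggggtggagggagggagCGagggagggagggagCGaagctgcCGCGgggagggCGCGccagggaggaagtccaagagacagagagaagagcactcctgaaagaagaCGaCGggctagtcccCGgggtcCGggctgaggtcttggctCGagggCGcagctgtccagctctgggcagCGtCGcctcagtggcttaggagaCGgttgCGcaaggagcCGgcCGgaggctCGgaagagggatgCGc
Zfp985 has 6 CG and Magea8 has 10, while Rasgrf1 has 26 and Foxf2 has 27. Gained and lost genes were not divided by CG content: among lost genes the window of Col4a6 has 3 CG, and Grb10 has 45 in the window nearer to its annotated start and 9 in another. The median over 32817 windows was 7, and 94.6% of them held at least 1 CG. Magea3 has 0 CG in its window. Methylation was not measured.

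Interferon-induced genes rose in part, and the clearest of them had no or almost no reads in F0. Ifi202b, a sensor of DNA in a family of close paralogs (ENSMUSG00000026535, chromosome 1, 173962568 to 173982744), was at 1824, 2888 and 3326 in Balb/c-2 and had 0 reads in F0, at least 2651-fold higher, with 3 reads over the F0 group as the floor. Ifi44l, an interferon-stimulated gene, was at 903, 1561 and 1511 in Balb/c-2, against 2.22, 0 and 0 in F0, a ratio of 1961 (exact 95% counting interval 542.6 to 1.62e+04). Gbp2b, a guanylate-binding GTPase that attacks the vacuoles of pathogens, was at 4468, 14774 and 8866 in Balb/c-2, against 77.7, 1.91 and 64.6 in F0 (log2 change 8.41 ± 0.99, adjusted p = 0.000954). H2-Ea-ps, the class II chain gene that C57BL/6 mice do not express, was at 22342, 19778 and 7287 in Balb/c-2, against 1.11, 0 and 0 in F0, a ratio of 4.914e+04 (exact 95% counting interval 8820 to 1.941e+06). Of 16 tested genes known to differ between C57BL/6 and other strains, 3 rose (Ifi202b, Gbp2b and H2-Ea-ps), 0 fell and 13 were not called. This is 18.8% called, where 3.51% of all genes tested were. For genes that C57BL/6 does not express, the strain of the host and a change in the tumour cells cannot be told apart. Ifi44l, also almost without reads in F0, is not on this list, and whether it differs between strains was not tested.

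Of the gained interferon genes, the promoter windows of Ifi202b, Gbp2b and Ifi44l alone were looked at. Those of Ifi202b and Gbp2b hold a core motif of interferon signalling and are printed. Searched on both strands were GAAANNGAAA, the core of the interferon-stimulated response element, and TTCNNNGAA, the core of the gamma-activated site, with matches in capitals and all other bases in lower case. The printed windows lie at chr1:173982795-173983094, minus strand (100 bases from the annotated start), and chr3:142594597-142594896, plus strand, in the same build and orientation as above.
Ifi202b: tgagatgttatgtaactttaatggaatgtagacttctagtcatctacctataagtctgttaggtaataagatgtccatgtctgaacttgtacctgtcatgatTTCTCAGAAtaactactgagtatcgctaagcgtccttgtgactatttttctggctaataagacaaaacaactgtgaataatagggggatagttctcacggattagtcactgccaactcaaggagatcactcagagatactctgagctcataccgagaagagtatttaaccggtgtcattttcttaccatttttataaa
Gbp2b: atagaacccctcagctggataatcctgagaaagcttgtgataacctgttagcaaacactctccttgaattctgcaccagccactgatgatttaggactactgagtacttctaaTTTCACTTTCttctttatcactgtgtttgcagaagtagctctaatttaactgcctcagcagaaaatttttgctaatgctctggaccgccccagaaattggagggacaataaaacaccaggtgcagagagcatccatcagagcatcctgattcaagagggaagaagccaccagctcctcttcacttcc
Ifi202b holds TTCNNNGAA once and Gbp2b holds GAAANNGAAA once on the opposite strand, while the window of Ifi44l holds neither. Of all 32817 windows, 8.29% hold TTCNNNGAA and 3.43% hold GAAANNGAAA.

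Of 21 tested interferon-inducible GTPases, 9 rose, 12 were not called and 0 fell, and the median log2 change was 2.43. Of all genes tested 1.88% rose. Gbp4 was at 8226, 42114 and 12237 in Balb/c-2, against 2284, 295 and 2934 in F0 (log2 change 3.69 ± 0.77, adjusted p = 0.0251). Tgtp1, of the immunity-related GTPases that guard against intracellular parasites, was at 5422, 16735 and 8386 in Balb/c-2, against 1885, 152 and 2006 in F0 (log2 change 3.45 ± 0.80, adjusted p = 0.0403). For Gbp2b, Gbp4 and Tgtp1 alike, Balb/c-2 B was highest and Balb/c-2 A lowest within Balb/c-2, and F0 B was far below F0 A and C. The GTPases summed to 116693, 358939 and 198179 in Balb/c-2, against 64953, 13802 and 61473 in F0. In the flow cell fit Gbp2b was called (adjusted p = 0.0336) and the other 8 were not. Reads shared between Gbp paralogs add to the uncertainty.

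Beyond the GTPases, of which 42.9% were called, the shares were smaller. They were 6.15% of interferon-stimulated effectors and 8.33% of ligands, receptors and transducers, where 3.51% of all genes tested were called. Of 65 tested interferon-stimulated effectors, 4 rose and 0 fell: Ifi202b, Ifi44l, Herc6 and Samhd1, which depletes nucleotides and restricts retroviruses, at 13902, 23764 and 14499 in Balb/c-2, against 9308, 4808 and 8190.3 in F0 (adjusted p = 0.0441). The effectors had a median log2 change of 0.76. Of 24 ligands, receptors and transducers, 2 rose and 0 fell, among the risers Irf1, an interferon-induced transcription factor, at 13055, 21027 and 16536 in Balb/c-2, against 6327, 2762 and 7113 in F0 (adjusted p = 0.0308). Cxcl11, an interferon-induced chemokine that draws T cells, rose to 764, 1387 and 2627 in Balb/c-2, against 139, 2.86 and 119 in F0 (adjusted p = 0.0308). Samhd1, Irf1 and Cxcl11 were not called in the flow cell fit, where the adjusted p ran from 0.254 to 0.314.

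Antigen presentation by MHC class I showed 4 gains among 30 tested genes (13.3%, where 3.51% of all genes tested were called), with 0 losses and a median log2 change of 1.3. Cd1d1, which presents lipids to NKT cells, was at 1018, 398 and 590.1 in Balb/c-2, against 104, 86.8 and 141 in F0 (log2 change 2.51 ± 0.41, adjusted p = 0.00733, 0.0178 in the flow cell fit). Tapbpl, a chaperone of peptide loading, was at 2975, 4313 and 2276 in Balb/c-2, against 1424, 743 and 1406 in F0 (adjusted p = 0.0264). The nonclassical genes H2-Q1 (1046, 1054 and 231 in Balb/c-2, 26.6, 0.954 and 28.9 in F0) and H2-Q2 (199, 79.3 and 12 in Balb/c-2, 0, 0 and 3.85 in F0) also rose, and both have close copies. H2 haplotypes differ between mouse strains, and what this did to the alignment of their reads was not tested. The classical genes were not called. H2-K1 was at 109713, 99269 and 90910 in Balb/c-2 and 67409, 16285 and 108941 in F0 (adjusted p = 0.34), H2-D1 at 149806, 132020 and 131149 in Balb/c-2 and 80495, 25495 and 124085 in F0 (adjusted p = 0.223), and B2m at 159704, 168283 and 192063 in Balb/c-2 and 94703, 31819 and 127988 in F0 (adjusted p = 0.132). In each of these 3 genes F0 B was far below the other F0 tumours. Of 14 tested class II genes, 2 rose (14.3%), H2-Ea-ps and H2-DMb2, and H2-DMb2 was not called in the flow cell fit (adjusted p = 0.0881).

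Checkpoint genes were uneven between tumours. Cd274, which encodes PD-L1, was at 2085, 19945 and 2505 in Balb/c-2, against 786, 165 and 1158 in F0 and was not called (adjusted p = 0.0589), and Balb/c-2 B was far above A and C. Ido1, a tryptophan-degrading enzyme gene that dampens T cells, was at 102, 449.8 and 52.3 in Balb/c-2, against 3.33, 0 and 5.78 in F0 (log2 change 5.46 ± 0.85, adjusted p = 0.00596). The T cell ligand gene Cd80 (825, 1102 and 994 in Balb/c-2, 597, 179 and 371 in F0) and the inhibitory receptor gene Cd200r1 (361, 947 and 710.2 in Balb/c-2, 219, 169 and 276 in F0) also rose, and Tgfb3 fell to 2042, 724 and 981 in Balb/c-2, against 3588, 5819 and 2676 in F0 (adjusted p = 0.0389). These 4 were the calls among 30 tested genes of immune checkpoints and suppression (13.3%, where 3.51% of all genes tested were called), and they were not called in the flow cell fit (adjusted p from 0.0823 to 0.432).

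Among losses, Rasgrf1 was low in each Balb/c-2 tumour. This exchange factor, which loads Ras with GTP and is imprinted in mice (ENSMUSG00000032356, chromosome 9, 89909908 to 90026977), was at 10.7, 6.53 and 9.44 in Balb/c-2, against 1427, 1770.1 and 1089 in F0. The 3 Balb/c-2 values were close to each other and far below F0, with a log2 change of -7.17 ± 0.46 (adjusted p = 1.14e-05, 0.00141 in the flow cell fit). Of 41 tested Ras proteins, exchange factors and inhibitors, Rasgrf1 fell and 1 gene rose (4.88% called, where 3.51% of all genes tested were). The riser was Rasa4, a GTPase-activating protein gene that turns Ras off, at 2652, 3919.6 and 2026 in Balb/c-2, against 1571, 1363 and 1239 in F0 (log2 change 1.00 ± 0.24, adjusted p = 0.0423). Rasgrf2, the paralog of Rasgrf1, was low, at 87.6, 34.5 and 25.7 in Balb/c-2 and 25.5, 11.5 and 18.3 in F0, and was not called. The general exchange factor gene Sos1 (729.9, 2496 and 1277 in Balb/c-2, 1209, 2324 and 1144 in F0), the Ras inhibitor gene Nf1 (1734, 4507 and 1977 in Balb/c-2, 2609.6, 3637 and 2370.4 in F0) and Nras (6414, 7237 and 12430 in Balb/c-2, 5502, 5389.5 and 6490.5 in F0) were not called.

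Braf, mutated in the parental line, was at 804, 2959 and 1001 in Balb/c-2 and 838, 1302 and 779 in F0 and was not called, with Balb/c-2 B above the rest. Downstream, 0 of 25 tested genes of MAPK pathway output were called by limma or by edgeR, 4 were called by DESeq2 and 5 had an unadjusted p under 0.05 in limma. Their median log2 change was 0.32. Ccnd1, which encodes cyclin D1 and is the most abundant of them, was at 9958, 36318 and 7631 in Balb/c-2 and 24353, 31806 and 24862 in F0 (adjusted p = 0.374).

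Genes of the basement membrane fell in part. Col4a6, a type IV collagen chain gene (ENSMUSG00000031273, chromosome X, 141165403 to 141474076), had 0 reads in all 3 Balb/c-2 tumours and was at 599, 1601 and 373 in F0, at least 1002-fold lower. Col4a5, its neighbour that is transcribed from a shared promoter region in the opposite direction, was at 505, 225 and 225 in Balb/c-2, against 2567, 4691 and 1398 in F0 (log2 change -3.12 ± 0.73, adjusted p = 0.0405, 0.318 in the flow cell fit). Of 29 tested basement membrane genes 4 fell, 1 rose and 24 were not called (17.2% called, where 3.51% of all genes tested were), and the median log2 change was -0.83. Col15a1 was at 1285, 1283 and 1097 in Balb/c-2, against 6689, 7664 and 2656 in F0 (adjusted p = 0.0109), and the laminin gene Lama4 was at 1175, 1772 and 1112 in Balb/c-2, against 3299, 3206 and 2777 in F0 (adjusted p = 0.0476). Smoc1, a calcium-binding matrix protein gene, rose to 498, 573 and 1010.4 in Balb/c-2, against 91, 45.8 and 42.4 in F0 (adjusted p = 0.0205). Genes of common components were not called: Col4a1 was at 11078, 10178 and 6735 in Balb/c-2 and 20930, 31072 and 11693 in F0 (adjusted p = 0.136), and the perlecan gene Hspg2 was at 9925, 28142 and 7198 in Balb/c-2 and 27631, 30762 and 20839 in F0 (adjusted p = 0.248).

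Of 36 tested genes of elastic fibres and collagen crosslinking, 8 fell, 1 rose and 27 were not called (25% called, where 3.51% of all genes tested were), with a median log2 change of -0.79. Efemp1, which encodes fibulin-3, was at 1239, 1018 and 1457 in Balb/c-2, against 6519, 5596 and 6929.9 in F0 (log2 change -2.37 ± 0.27, adjusted p = 0.000854, 0.0219 in the flow cell fit). The lysyl oxidase gene Loxl1 was at 7898, 5402 and 6872 in Balb/c-2, against 18260, 27022 and 15969 in F0 (log2 change -1.58 ± 0.24, adjusted p = 0.005), and Loxl3 at 3694, 4039 and 2032 in Balb/c-2, against 9329, 8251 and 6657 in F0 (adjusted p = 0.0237). Of the 4 latent TGF-beta binding protein genes, 3 fell: Ltbp1 was at 6276, 6830.3 and 7134 in Balb/c-2, against 17375, 17816 and 15969 in F0, Ltbp2 at 463, 927 and 150.1 in Balb/c-2, against 3036, 7759 and 2747 in F0, and Ltbp3 at 6135, 4179 and 3171 in Balb/c-2, against 11938, 15872 and 9188 in F0. Ltbp4 was at 18988, 34591 and 16699 in Balb/c-2 and 21273, 16018 and 17332 in F0 and was not called (adjusted p = 0.689). The procollagen protease gene Adamts2 was at 1487, 1769 and 1234 in Balb/c-2, against 4723, 9048 and 5157 in F0 (log2 change -2.03 ± 0.31, adjusted p = 0.00492). Plod1, which hydroxylates collagen lysines, was the remaining loss, and Emilin2 rose to 5152, 8310.4 and 6448 in Balb/c-2, against 3030.2, 2125 and 2698 in F0. Lox itself was at 2287, 3039.5 and 3414 in Balb/c-2 and 3145, 577 and 4312 in F0 and was not called. In the flow cell fit Efemp1 was called and the other 8 were not, and 8 of the 9 were called without Balb/c-2 A.

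Interstitial matrix and fibroblast genes followed the same direction, with 9 of 34 lower, 1 higher (29.4% called, where 3.51% of all genes tested were) and a median log2 change of -0.52. The periostin gene Postn was at 8139.9, 9072 and 4009 in Balb/c-2, against 36549, 75365 and 24076 in F0 (log2 change -2.60 ± 0.50, adjusted p = 0.0185). The growth factor receptor gene Pdgfra, a marker of fibroblasts, was at 4996, 7494 and 4505 in Balb/c-2, against 19520, 26009 and 17267 in F0 (log2 change -1.90 ± 0.41, adjusted p = 0.0287), and the gelatinase gene Mmp2 at 3297, 3429 and 2976 in Balb/c-2, against 11599, 25752 and 7743 in F0 (log2 change -2.03 ± 0.42, adjusted p = 0.0237). The 3 Balb/c-2 tumours lay below all F0 tumours for each. Pi16 rose to 2787, 679 and 1752 in Balb/c-2, against 377, 198 and 375 in F0. The list summed to 538015, 652761 and 443559 in Balb/c-2, against 1041981, 1255050 and 805641 in F0, without overlap. In the flow cell fit none of the 10 called genes was called. Mesenchymal melanoma cells and host fibroblasts both express this list. Of 29 tested matrix metalloproteases, ADAMTS proteases and inhibitors, 4 fell, 1 rose and 24 were not called (17.2% called). Mmp16, a membrane-anchored collagenase gene, fell to 169, 368 and 273 in Balb/c-2, against 948, 2219 and 939 in F0 (adjusted p = 0.0246), and Adamts15 rose to 324, 249 and 179 in Balb/c-2, against 94.3, 17.2 and 24.1 in F0 (adjusted p = 0.0386).

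**Figure D3:**
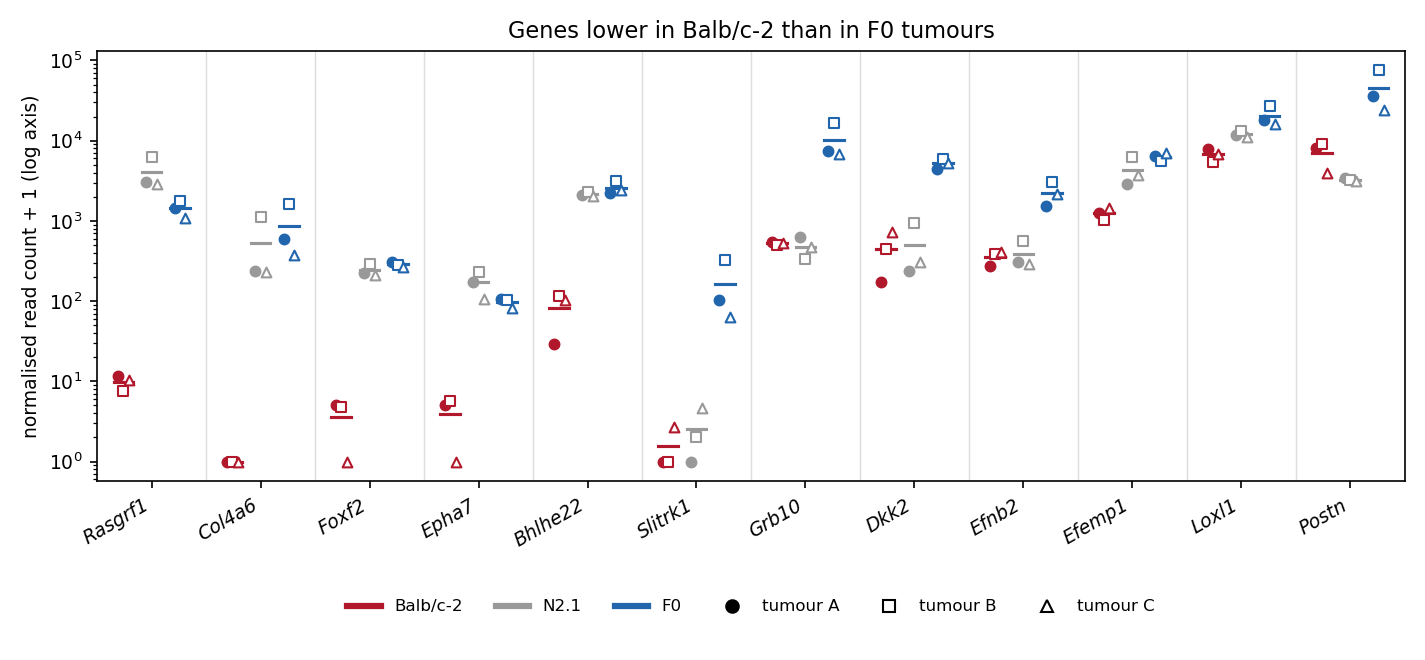
Normalised read count plus 1 (log axis) of 12 genes that fell in Balb/c-2, with each tumour as a point and the group mean as a bar, for Balb/c-2 (red), N2.1 (grey) and F0 (blue). Rasgrf1, Col4a6, Foxf2, Epha7 and Bhlhe22 are low in Balb/c-2 and high in N2.1 and F0, while Slitrk1, Grb10, Dkk2 and Efnb2 are low in N2.1 too.

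Of 42 tested imprinted genes, 4 fell, 0 rose and 38 were not called (9.52% called, where 3.51% of all genes tested were), with a median log2 change of 0.08. Besides Rasgrf1 these were Grb10, Peg10 and Sgce. Grb10, an adaptor that restrains insulin and growth factor receptors, was at 537, 502 and 527 in Balb/c-2, against 7458, 16548 and 6908 in F0 (log2 change -4.18 ± 0.39, adjusted p = 0.000171, 0.00959 in the flow cell fit), and the 3 Balb/c-2 values were nearly equal. The neighbouring genes Peg10 (718, 1249 and 655 in Balb/c-2, 2277, 6126 and 3082 in F0) and Sgce (1289.6, 1385 and 1892 in Balb/c-2, 2561, 2698 and 2884 in F0) fell less and were not called in the flow cell fit.

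Of 43 tested transcription factor genes of development, 5 fell, 1 rose and 37 were not called (14% called, where 3.51% of all genes tested were), and the median log2 change was -0.85. Foxf2, a forkhead factor of mesenchyme (ENSMUSG00000038402, chromosome 13, 31625816 to 31631403), was at 4.13, 3.73 and 0 in Balb/c-2, against 306, 284 and 266 in F0 (log2 change -6.63 ± 0.59, adjusted p = 0.000126, 0.00769 in the flow cell fit). Eya1, a cofactor in organ formation, was at 14.9, 5.6 and 6.86 in Balb/c-2, against 162, 135 and 111 in F0 (adjusted p = 0.00506), and the homeobox gene Lhx9 was at 24.8, 8.4 and 15.4 in Balb/c-2, against 105, 219 and 162 in F0 (adjusted p = 0.00838). Bhlhe22, a basic helix-loop-helix factor of neurons, was among the 12 largest falls of genes with a mean of at least 100 in F0, at 28.1, 115 and 103 in Balb/c-2, against 2212, 3115 and 2459 in F0 (log2 change -5.19 ± 0.77, adjusted p = 0.00439). The riser was Tbx15, at 715, 773 and 847 in Balb/c-2, against 337, 156 and 364 in F0, named after its values were seen. Of 24 tested Hox genes, 0 were called by limma or edgeR and 1 by DESeq2, and 6 had an unadjusted p under 0.05 in limma.

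Of 43 tested growth factor receptors and ligands, 7 fell and 0 rose (16.3% called, where 3.51% of all genes tested were), and the median log2 change was 0.03. Epha7, an ephrin receptor gene, was at 4.13, 4.67 and 0 in Balb/c-2, against 107, 102 and 80.9 in F0 (log2 change -4.98 ± 0.75, adjusted p = 0.00473), and the ephrin ligand gene Efnb2 was at 277, 384 and 408 in Balb/c-2, against 1536, 3092 and 2136 in F0 (log2 change -2.62 ± 0.34, adjusted p = 0.00178). Fgf7, a fibroblast growth factor that acts on epithelia, was at 127, 207 and 338 in Balb/c-2, against 696, 989 and 847 in F0 (adjusted p = 0.0142). In the Wnt, Notch and Hedgehog list 4 of 49 fell and 1 rose (10.2% called), with a median log2 change of -0.33. Dkk2, a secreted modulator of Wnt receptors, was at 174, 444 and 716 in Balb/c-2, against 4414, 5949 and 5234 in F0 (log2 change -3.75 ± 0.56, adjusted p = 0.00466), and Wnt5a was at 242, 554 and 168 in Balb/c-2, against 1644, 1516 and 2078 in F0 (adjusted p = 0.0163). Sfrp4, a secreted Wnt inhibitor gene, rose to 265, 71.9 and 449 in Balb/c-2, against 43.3, 23.9 and 8.67 in F0 (adjusted p = 0.0466). Of 42 tested genes of the TGF-beta and BMP pathway, 4 fell and 0 rose (9.52% called), with a median log2 change of -0.08. Among the 4 was the coreceptor gene Tgfbr3 at 1384, 2247 and 1823 in Balb/c-2, against 3536, 4536 and 3768 in F0 (adjusted p = 0.0399). Efnb2, Fgf7 and Dkk2 were also called in the flow cell fit (adjusted p = 0.0198, 0.0198 and 0.00959).

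Slitrk1, a membrane protein gene of neurons, had 2 reads in Balb/c-2 and was at 102, 322 and 62.6 in F0, lower by a ratio of 285.1 (exact 95% counting interval 78.5 to 2361). Of 24 tested cadherins and protocadherins, 3 fell and 0 rose (12.5% called, where 3.51% of all genes tested were), and 0 of the 3 were called in the flow cell fit: Cdh26 at 21.5, 25.2 and 84.1 in Balb/c-2, against 311, 873 and 451 in F0, Cdh6 at 5.79, 1.87 and 0 in Balb/c-2, against 65.5, 56.3 and 30.8 in F0, and Cdh2, N-cadherin, at 1139, 1399 and 995 in Balb/c-2, against 2485, 4397 and 2744 in F0. Among the genes with large falls were also Cadps, a factor of regulated secretion, at 15.7, 2.8 and 0 in Balb/c-2, against 87.7, 104 and 259 in F0, and the GTPase-activating gene Arhgap44, at 10.7, 5.6 and 0 in Balb/c-2, against 122, 233 and 144 in F0. Pilrb1, Pcdhga7, Aox3, Lhfpl4 and Crispld1 complete the 12 largest falls of genes with a mean of at least 100 in F0, and each was at 26.1 or less in every Balb/c-2 tumour. Pilrb1 and Slitrk1 were also called in the flow cell fit (adjusted p = 0.032 and 0.0225). Of 25 tested integrins, 2 rose and 0 fell (8% called): the collagen receptor gene Itga11 at 88.5, 140 and 31.7 in Balb/c-2, against 4.44, 2.86 and 20.2 in F0 (adjusted p = 0.0258), and the lymphocyte integrin gene Itgb7 at 5281, 5042 and 3356 in Balb/c-2, against 1535, 613 and 1419 in F0 (adjusted p = 0.0147).

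Of 34 tested genes of the dedifferentiated or invasive melanoma state, 6 fell, 0 rose and 28 were not called (17.6% called, where 3.51% of all genes tested were), and the median log2 change was -0.16. The 6 include Wnt5a and Cdh2 (values above), and in the flow cell fit they were not called. Sox2 was at 663, 185 and 499 in Balb/c-2, against 1613, 2279 and 1941 in F0 (log2 change -2.29 ± 0.48, adjusted p = 0.0275), and Aqp1, a water channel gene, at 31267, 34513 and 27684 in Balb/c-2, against 68475, 90954 and 67829 in F0 (log2 change -1.27 ± 0.25, adjusted p = 0.0183). Of 20 tested melanocyte genes, 0 were called by limma or edgeR, 4 were called by DESeq2 and 4 had an unadjusted p under 0.05 in limma, and the median log2 change was 0.68. Mitf, the master regulator of melanocytes, was at 495, 1258 and 449 in Balb/c-2 and 365, 318 and 336 in F0 (adjusted p = 0.274), and Sox10 was at 4.96, 72.8 and 3.43 in Balb/c-2 and 1.11, 0.954 and 3.85 in F0 (adjusted p = 0.345), so the defining marker Sox10 was near absent in 5 of the 6 tumours. Cdkn2a was at 178, 71.9 and 100.4 in Balb/c-2 and 65.5, 81.1 and 75.2 in F0 (adjusted p = 0.473).

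Among general programmes, 2.7% of proliferation genes and 7.69% of p53 targets were called, where 3.51% of all genes tested were. The median log2 change was -0.44 for proliferation genes, with 5 of 37 positive. It was 0.63 for p53 targets, with 19 of 26 positive, and -0.02 for all genes tested. Of 37 proliferation genes 1 fell, E2f1, which drives entry into S phase, at 1671, 1553 and 1926 in Balb/c-2, against 2880.4, 3045 and 3534 in F0 (adjusted p = 0.0316). Of 26 p53 targets 2 rose: the cell cycle inhibitor gene Cdkn1a at 8984, 12291 and 11158 in Balb/c-2, against 6864, 2499 and 4893 in F0 (adjusted p = 0.0494), and the death receptor gene Fas at 756, 845 and 727 in Balb/c-2, against 239.8, 126 and 362 in F0 (adjusted p = 0.0445). Limma and edgeR called 0 of 32 hypoxia and glycolysis genes, 0 of 28 genes of transposable element silencing and 0 of 23 genes of DNA methylation, with medians of 0.05, -0.18 and -0.19. DESeq2 called 3, 2 and 5 of them, and 4, 3 and 8 had an unadjusted p under 0.05 in limma. Trim28, the corepressor that KRAB zinc finger proteins recruit, was at 16286, 13596 and 17506 in Balb/c-2 and 20254, 23750 and 22853 in F0 (adjusted p = 0.145).

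The 12 largest rises, counted over genes with a mean of at least 100 in Balb/c-2 and without predicted genes and pseudogenes, include 6 not yet described. Hal, which encodes histidine ammonia-lyase, was at 1979, 3223 and 1269 in Balb/c-2, against 36.6, 9.54 and 24.1 in F0 (log2 change 6.55 ± 0.52, adjusted p = 6.79e-05), and Pianp was at 803, 1100.3 and 500.1 in Balb/c-2, against 12.2, 7.63 and 7.71 in F0 (log2 change 6.26 ± 0.34, adjusted p = 1.93e-06). All Balb/c-2 tumours were high for both, and both were also called in the flow cell fit (adjusted p = 0.00503 and 0.000259). Pck1, the key enzyme of glucose synthesis, was at 988, 4.67 and 261 in Balb/c-2, against 0, 0 and 0.964 in F0, a ratio of 1303 (exact 95% counting interval 233.5 to 5.15e+04), and was high mainly in Balb/c-2 A. Lectin genes of macrophages were also led by Balb/c-2 A: Cd209b was at 1390.4, 25.2 and 64.3 in Balb/c-2, against 0, 0 and 0.964 in F0 (a ratio of 1546 (exact 95% counting interval 277.1 to 6.109e+04)), and Cd209g at 1451, 39.2 and 308 in Balb/c-2, against 3.33, 0 and 14.5 in F0. Rnase2a, an eosinophil-type ribonuclease gene, was at 959, 147 and 249 in Balb/c-2, against 0, 0 and 12.5 in F0. Without Balb/c-2 A, Pck1, Cd209g and Rnase2a were not called (adjusted p = 0.125, 0.111 and 0.0605) and Cd209b was (adjusted p = 0.0149).

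Lipid uptake and complement genes rose in part. Of 19 tested adipocyte and lipid uptake genes, 3 rose, 16 were not called and 0 fell (15.8% called, where 3.51% of all genes tested were), and the median log2 change was 3.10. The fatty acid transporter gene Cd36 was at 3134, 8776 and 3239.7 in Balb/c-2, against 629, 171 and 421 in F0 (log2 change 3.64 ± 0.53, adjusted p = 0.00395), lipoprotein lipase Lpl at 7369.5, 1370 and 4153 in Balb/c-2, against 467, 436 and 481 in F0 (log2 change 2.91 ± 0.50, adjusted p = 0.0103), and the lipase gene Pnpla2 at 6312, 3801 and 5458 in Balb/c-2, against 2459.7, 2385 and 2507 in F0 (adjusted p = 0.0228). The list summed to 104628, 35471 and 56907 in Balb/c-2, against 27698, 35965 and 22058 in F0, and Balb/c-2 B lay within the F0 range. Of 23 tested complement genes, 4 rose and 0 fell (17.4% called). C4b was at 10699, 10360 and 3458 in Balb/c-2, against 1446, 264 and 1591 in F0 (adjusted p = 0.0212), and C2 at 831, 330.4 and 508 in Balb/c-2, against 118, 15.3 and 64.6 in F0 (adjusted p = 0.0144), with F0 B the lowest tumour for both. In the flow cell fit 0 of the 4 were called, and without Balb/c-2 A 1 of the 4 was, C2 (adjusted p = 0.0497).

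Marker lists of immune cells are given by the share called, where 3.51% of all genes tested were called. The shares called were 6.45% of macrophage and monocyte genes, 6.25% of neutrophil genes and 6.25% of mast cell genes. They were 3.57% of endothelium and pericyte genes and 5.66% of chemokine and chemokine receptor genes. Limma called 0 of 25 T cell genes, 0 of 19 NK and cytotoxic genes, 0 of 30 B and plasma cell genes and 0 of 20 dendritic cell genes, with medians of 2.14, 1.36, 1.68 and 1.19. At an unadjusted p under 0.05 the counts were 14, 7, 5 and 8, edgeR called 0, 0, 1 and 1, and DESeq2 called 10, 2, 7 and 7. Of 31 macrophage and monocyte genes 2 rose, the scavenger receptor gene Cd163 at 1704, 924 and 2287 in Balb/c-2, against 249.8, 284 and 505 in F0 (adjusted p = 0.0145), and Timd4 at 1087, 134 and 159.5 in Balb/c-2, against 14.4, 2.86 and 61.7 in F0 (adjusted p = 0.038). Of 16 neutrophil genes Padi4, which citrullinates histones, rose to 315, 732 and 582 in Balb/c-2, against 124, 7.63 and 105 in F0 (adjusted p = 0.042), and of 16 mast cell genes the tryptase gene Tpsab1 rose to 759.7, 3289 and 298 in Balb/c-2, against 36.6, 10.5 and 211 in F0 (adjusted p = 0.0431). Endothelium and pericyte genes gave 1 gain of 28, Prox1, a factor of lymphatic vessels, at 41.3, 12.1 and 10.3 in Balb/c-2 and with 0 reads in F0, at least 21.66-fold higher. Of 53 chemokine and chemokine receptor genes 2 rose, Cxcl11 and the macrophage chemokine gene Ccl4, at 446, 1858 and 1059 in Balb/c-2, against 205, 129.8 and 213 in F0 (adjusted p = 0.0411), and Cx3cr1 fell to 611, 161 and 223 in Balb/c-2, against 2521, 8332 and 1271 in F0 (adjusted p = 0.0429).

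Summed levels of these lists moved with single tumours. T cell genes summed to 47637, 15215 and 8514 in Balb/c-2, against 8610, 2213 and 9468 in F0, highest in Balb/c-2 A and lowest in F0 B. NK and cytotoxic genes summed to 14593, 22169 and 15155 in Balb/c-2, against 10060, 3000 and 15607 in F0, and macrophage and monocyte genes to 309628, 364490 and 220006 in Balb/c-2, against 214628, 205617 and 280249 in F0, with overlap in both. F0 B was the lowest tumour of the 6 for T cells, NK cells, class II presentation and interferon GTPases. The part of these levels in the interferon, class I and complement gains was not tested, and without F0 B the count of all calls was 227.

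**Figure D4:**
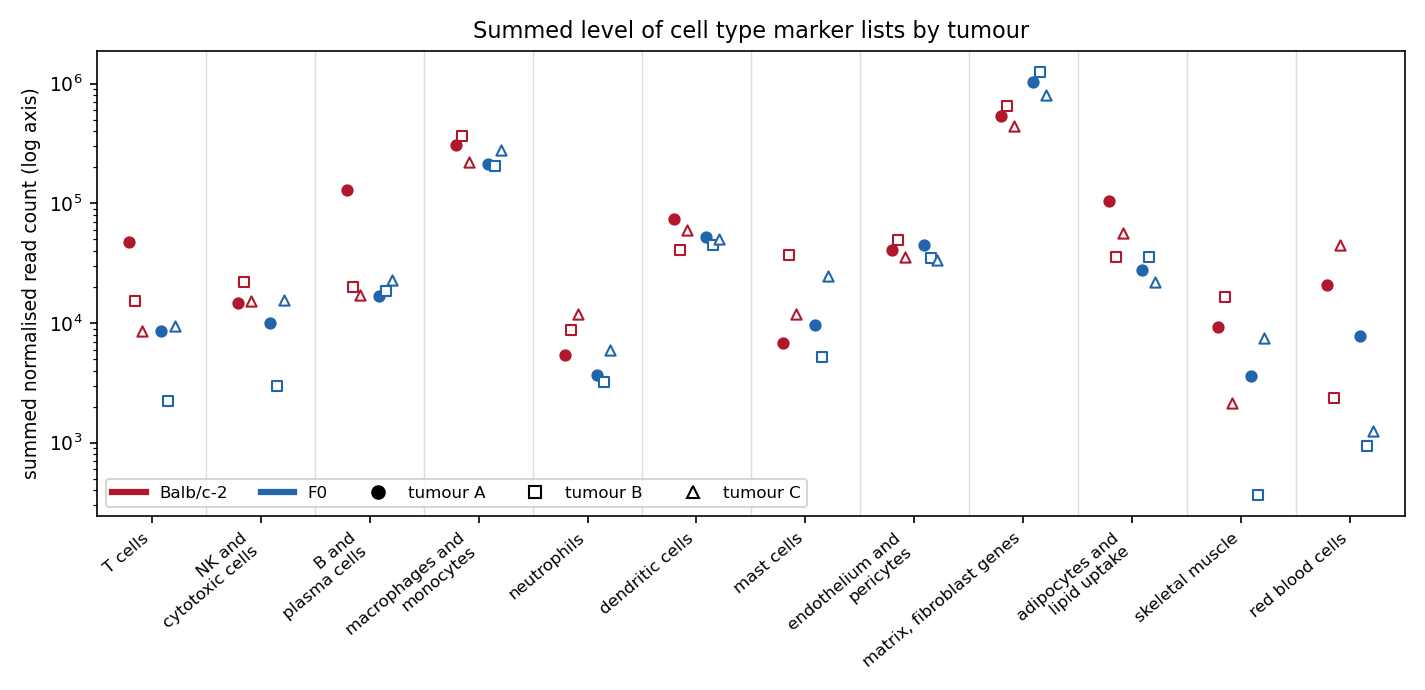
Summed normalised read count (log axis) of 12 marker lists in each Balb/c-2 (red) and F0 (blue) tumour, with the tumours as circles (A), squares (B) and triangles (C). B and plasma cell genes sum to 129774 in Balb/c-2 A and to between 16924 and 23076 in the other tumours shown, and of the 12 lists the matrix and fibroblast list alone is lower in all Balb/c-2 tumours than in all F0 tumours.

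Balb/c-2 A stood apart from Balb/c-2 B and C through genes of B cells and lymphoid tissue. The B cell receptor gene Cd79a was at 10147, 6.53 and 18 in Balb/c-2, against 21.1, 16.2 and 218 in F0, and Fcmr, the receptor gene for IgM, was at 3804, 1.87 and 8.58 in Balb/c-2, against 7.77, 0.954 and 162 in F0. Chemokines of lymph node stroma were high in the same tumour: Ccl21a was at 3841, 8.4 and 18 in Balb/c-2, against 1.11, 0 and 37.6 in F0, and Ccl19 at 1542, 1.87 and 9.44 in Balb/c-2, against 0, 0 and 23.1 in F0. B and plasma cell genes summed to 129774, 19974 and 17046 in Balb/c-2, against 16924, 18621 and 23076 in F0. In the flow cell fit 10 of the 30 were called higher, Cd79a among them (adjusted p = 0.0214), and the sizes of these 10 changes come from Balb/c-2 A alone.

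**Figure D5:**
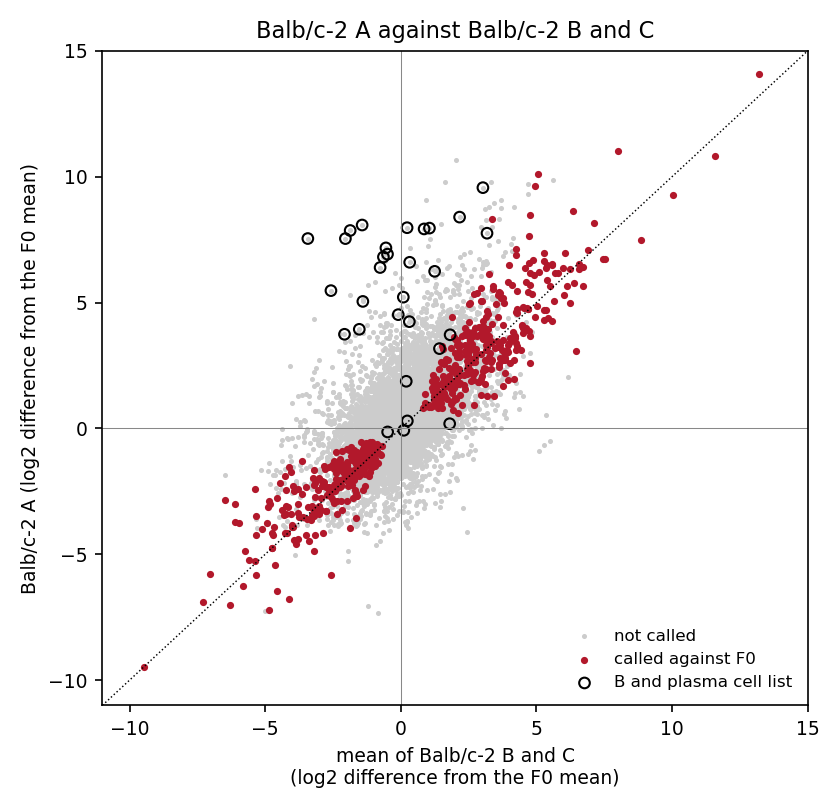
Log2 difference from the F0 mean of Balb/c-2 A (vertical axis) against the mean of Balb/c-2 B and C (horizontal axis) for the genes tested, each symbol shown once, with called genes in red, B and plasma cell genes circled and a dotted line of equal size. Called genes, which were called with Balb/c-2 A in the fit, lie along the line on both sides, and most circled genes lie above it, high in Balb/c-2 A alone.

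Other genes were low in Balb/c-2 A and high in Balb/c-2 B or C. Nxf3, an X-linked RNA export factor gene of the testis, was at 8.27, 381 and 420.3 in Balb/c-2 and 101, 156 and 33.7 in F0. Prl2c2, a placental prolactin-family gene, was at 187, 4347 and 979.5 in Balb/c-2 and 301, 21.9 and 415 in F0, and Il1f9, an epithelial interleukin gene, at 8.27, 141 and 85.8 in Balb/c-2 and 17.8, 0 and 7.71 in F0. Fcrl6 (4.96, 283 and 25.7 in Balb/c-2, 4.44, 2.86 and 125 in F0) and Tm4sf19 (3.31, 256 and 18.9 in Balb/c-2, 15.5, 41 and 24.1 in F0) were highest in Balb/c-2 B. These 5 genes were not called against F0 (adjusted p from 0.23 to 0.979). Of the 614 called genes, 293 had the 3 Balb/c-2 tumours within a factor of 2 of each other.

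Processed pseudogenes, copies of genes made from their RNA, were looked at after the values were seen. Of 1072 tested, 40 rose (3.73%, where 1.74% of protein-coding genes rose) and 4 fell. Gm8730 was at 28124, 5395 and 11732 in Balb/c-2, against 317, 198 and 305 in F0 (log2 change 5.49 ± 0.54, adjusted p = 0.000274), and Rps3a2 at 11718, 2789 and 9632 in Balb/c-2, against 458, 253 and 422 in F0 (adjusted p = 0.00156). N2.1 was at 13946, 7841 and 11000 for Gm8730 and 5358, 2229.8 and 4294 for Rps3a2. Of the 40, 39 were not called between Balb/c-2 and N2.1. Such copies share long stretches with their parent genes, so their values depend on how reads were assigned.

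Against N2.1, which lay on the flow cell of F0 and Balb/c-2 A, 406 genes were called in Balb/c-2 (2.32%). The count was 1486 without Balb/c-2 B, 183 without Balb/c-2 C and between 177 and 179 without 1 of the N2.1 tumours. Of the 614 genes called against F0, 137 were also called against N2.1, with 64 higher in both, 68 lower in both and 5 in opposite directions. The germline and X-linked gains were mostly in the first set: Rhox5 was at 0, 6.11 and 11.7 in N2.1 (log2 change of Balb/c-2 against N2.1 10.43 ± 0.91, adjusted p = 0.000117), Morc1 at 1.89, 0 and 0 (9.16 ± 0.51, 6.26e-06) and Magea3 at 0, 2.04 and 0 (7.81 ± 0.74, 0.000184). Hormad1 was at 269, 455 and 715 in N2.1 and lower in Balb/c-2 (-7.94 ± 0.84, 0.000383), and Majin was at 189, 154 and 156 in N2.1 and was not called (-2.34 ± 0.59, 0.0694). Of the 35 X-linked gains, 26 were also higher than in N2.1 by the same test, as were all 4 zinc finger genes. Losses in both comparisons include Rasgrf1, at 3016, 6172 and 2848 in N2.1 (-8.59 ± 0.46, adjusted p = 6.26e-06), Foxf2, at 224, 290.3 and 213 (-6.38 ± 0.59, 0.000138), and Col4a6, at 237, 1122 and 232.

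Other changes were shared with N2.1 in their values. Ifi202b was at 5325, 2357 and 3430 in N2.1, Gbp2b at 7938, 10534 and 8962 and Ifi44l at 1320.2, 1366 and 943, and the difference of Balb/c-2 from N2.1 was not called (adjusted p = 0.554, 0.968 and 0.936). H2-Ea-ps was at 25385, 35029 and 32908 in N2.1, and its difference was not called either (adjusted p = 0.237). Grb10 was at 628, 330 and 473 in N2.1 (log2 change of Balb/c-2 against N2.1 0.18 ± 0.39, adjusted p = 0.871), Dkk2 at 239, 941 and 303 (adjusted p = 0.954) and Efnb2 at 309, 553 and 291 (adjusted p = 0.951). A p that misses the threshold does not show that the groups were alike: for Grb10 the 95% interval of the log2 difference ran from -0.68 to 1.03. For Cdh26 the directions were opposite: it was at 0, 4.07 and 0 in N2.1, so that Balb/c-2 lay below F0 and above N2.1 (4.42 ± 0.72, adjusted p = 0.00773). Lin28b was at 0 in all N2.1 tumours, and Balb/c-2 lay above both N2.1 (adjusted p = 0.000795) and F0. The comparisons against F0 and N2.1 share the Balb/c-2 tumours.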

How the data were processed

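RNA-seq of tumours was given by the authors as a table of 12 tumours. Its values are a deposited signal: reads per gene or repeat copy divided by 1 factor per library, rounded to 3 decimals. Every value in the 6 tumours was a whole multiple of 1 step within a tolerance of 0.1 reads, which gave back the reads (100% of values) and the library totals. The submitters' processing notes list build mm10, featureCounts 1.5.0-p3, HISAT2 2.0.5 and StringTie 1.3.3b, and the normalising tool, strand setting and treatment of multimapped reads are not stated there.

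Tests were run on 17491 genes that reached 10 in 3 or more tumours, with limma 3.58.1 in R 4.3.3 on log2(value + 1), with all 4 groups in 1 fit, a trended robust prior and Benjamini-Hochberg adjustment. Scripts were tested on simulated data. edgeR 4.0.16 and DESeq2 1.42.0 on the recovered reads, other filters, pseudocounts and scalings, array weights, a flow cell term and leaving out each tumour were alternatives.

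The rule for named genes took the 12 largest called changes in each direction (group mean of 100 or more in Balb/c-2 for rises and in F0 for falls, without predicted genes, pseudogenes and receptor segments), up to 4 called members of a list (else its most abundant member), members of the germline, basement membrane, crosslinking and Ras lists, a fixed set, and genes that set Balb/c-2 A apart from B and C. Others are marked as named after their values were seen, as are members of a list named to account for a count of 5 or fewer. The comparison, its members and the lists were chosen with earlier results of these data known. Letters were not taken to pair tumours: deviations of Balb/c-2 and F0 tumours of the same letter correlated at 0.10 (A), 0.24 (B) and 0.06 (C), and those of Balb/c-2 and N2.1 at 0.06 (A), 0.43 (B) and 0.23 (C). A few genes are not reported here.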

Additional observations from a re-analysis of the deposited data

How the results depend on the processing

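The 614 genes called in Balb/c-2 against F0 became 172 with the 6 tumours alone, 261 with a term for the flow cell, 219 with array weights by group and 1907 with DESeq2. Leaving out 1 tumour at a time gave 227 to 718. The 406 called against N2.1 became 138, 117, 209 and 1281 in these 4 fits, and 177 to 1486 when 1 tumour was left out. The replicate block, with the tumour letter as its term, gave 417 calls against F0 and 314 against N2.1. Other filters, pseudocounts, the prior and edgeR gave 455 to 690 calls against F0. The cause of these moves was not tested. By design, 6 tumours leave fewer degrees of freedom and array weights let the groups differ in spread. Balb/c-2 A alone sets the size in the flow cell fit.

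Of 113 named called genes, 22 were called under every alternative (among them Rhox5, Morc1, Magea3, Zfp985, Zfp977, Zfp979, Zfp936, Ifi202b, Ifi44l, Gbp2b, Rasgrf1, Col4a6, Foxf2, Grb10, Dkk2, Efnb2 and Efemp1), and none changed direction. The log2 change of Braf, not called, was -0.236 in the flow cell fit and ran from -0.0781 to 0.86 when 1 tumour was left out. The log2 change of Xist, not called, was -0.0253 with a pseudocount of 0.5 and -4.13 in the flow cell fit, and ran from -4.13 to 3.40 when 1 tumour was left out. The median log2 change of all genes was 0.11 with DESeq2. X-linked calls, a count chosen after seeing the data, numbered 51, and 24 to 91 under the alternatives. Genes with few reads limit precision, since a group with 0 reads gives a bound only.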
